A study of Mus musculus with 42 samples.

Results

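The genes of nonhomologous end joining were followed across 21 transformed mouse pre-B cell lines. The genes were chosen by symbol: Prkdc, Xrcc5, Xrcc6, Lig4, Xrcc4, Nhej1, Dclre1c, Poll and Polm, and every probe set that the array annotation gives to 1 of these 9 symbols was taken. The choice gave 8 genes of the 18194 named on the array, with 11 probe sets among 45101. Dclre1c, which encodes the nuclease Artemis, was not analysed here. All 11 probe sets passed the filter on dim signals, as did 28260 probe sets in all.

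Each line was sampled 2 h after 1 Gy of gamma rays from a caesium source and 2 h after a mock treatment, which gave 42 Affymetrix arrays, 3 per genotype and dose. The genotypes were Atm-/-, Scid (mutant in Prkdc), Mre11A/A (described as a hypomorph of Mre11), 53bp1-/-, H2ax-/-, Mdc1-/- and WT, with no mutated gene. All lines, WT included, came from bone marrow of mice 3 to 5 weeks old that carried the Eμ-Bcl2 transgene, and all had been transformed with a retrovirus for v-abl, an oncogenic kinase. The Eμ enhancer drives the transgene in B-lineage cells, and Bcl2 protects cells from apoptosis, so every comparison is between cells that carry an oncogene and a survival gene. The labels call the 3 lines of a genotype biological replicates and do not say whether they came from separate mice.

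Nonhomologous end joining repairs DNA double-strand breaks by joining the broken ends directly. The Ku70 and Ku80 proteins encircle an end and recruit the kinase DNA-PKcs, Artemis opens hairpins and trims ends, the polymerases λ and μ fill gaps, and DNA ligase IV with XRCC4 and XLF seals the break. Developing B cells need the pathway to join the immunoglobulin gene segments that the RAG nuclease cuts, and Scid mice, which lack working DNA-PKcs, form almost no mature lymphocytes.

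Lig4 was the only member that passed the test after radiation, with lines paired, and Xrcc4 and Nhej1 encode the partners of its protein. Xrcc5 was the only member that passed the test among untreated genotypes. Sequences upstream of these 4 members are shown. They are the bases before the annotated start that lie outside every gene record of RefSeq assembly GRCm38.p6, 5′ to 3′ on the strand of the gene, at most 250 bases. The RefSeq promoter table held 7 of the 9 members. Capitals mark matches to a motif or to its reverse complement; the motifs searched on both strands were CCAAT (the CCAAT box), GGGCGG (a GC box), TTTCCCGC and TTTGGCGC (E2F sites) and CCGGAAGT (an ETS site), and no matches overlapped.
Lig4, chr8:9977681-9977716, minus strand: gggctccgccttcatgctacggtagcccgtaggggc
Xrcc4, chr13:90089609-90089666, minus strand: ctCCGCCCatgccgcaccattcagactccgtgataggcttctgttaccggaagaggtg
Nhej1, chr1:75125227-75125476, minus strand: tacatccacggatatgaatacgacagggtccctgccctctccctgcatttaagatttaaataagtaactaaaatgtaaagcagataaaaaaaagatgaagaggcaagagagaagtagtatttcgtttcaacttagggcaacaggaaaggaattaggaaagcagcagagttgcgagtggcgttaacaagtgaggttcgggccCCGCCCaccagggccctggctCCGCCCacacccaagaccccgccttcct
Xrcc5, chr1:72307171-72307416, plus strand: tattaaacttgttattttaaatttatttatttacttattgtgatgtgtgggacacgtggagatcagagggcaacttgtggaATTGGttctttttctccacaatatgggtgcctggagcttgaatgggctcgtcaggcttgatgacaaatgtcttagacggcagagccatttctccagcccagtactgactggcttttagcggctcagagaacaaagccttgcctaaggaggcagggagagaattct

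The Lig4 and Xrcc4 sequences are short because another gene starts close by on the opposite strand. Abhd13 starts 37 bases from Lig4, and Tmem167 starts 59 bases from Xrcc4. The 36 bases shown for Lig4 held none of the 5 motifs, and 11.5% of all 32851 promoter windows of that length held a GC box. Xrcc4 had 1 GC box in its 58 bases, against a share of 18.2% of windows of that length. Nhej1 had 2 GC boxes in 250 bases, where 32.7% of windows held at least 1. Xrcc5 had no GC box and 1 CCAAT box in 246 bases, which 33.5% of windows of that length held. The GC content was 69.4% for Lig4, 58.6% for Xrcc4, 48.4% for Nhej1 and 43.9% for Xrcc5.

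Signals are MAS5 intensities on a linear scale, and tests used log2(signal + 16), on which the change of a dim probe set is understated. A value was called when its Benjamini-Hochberg adjusted p over all 28260 probe sets, from limma, was under 0.05. Array medians were 62.3 to 115, and 2 arrays, irradiated Atm-/- line 2 and irradiated WT line 4, lay above 100. The 7 pre-B markers with a probe set lay above the median of every array. Of the 5 T-cell markers none did so on all arrays, and their summed signal was 61.8 to 327 per array, against 54341 to 95423 for the pre-B markers. It was 206 to 951 for 6 myeloid markers, 14.9 to 185 for 3 erythroid markers and 59.0 to 400 for 5 stromal ones. Of these only the myeloid marker Csf1r lay above the median of every array. The T-cell marker Cd8a lay above it on 36 of 42 arrays, and the myeloid markers Fcgr1 and Lyz2 on 25 and 21. Cdkn1a and Mdm2 are p53 targets used as a check of the exposure. Cdkn1a was higher at 1 Gy in 21 of 21 lines, by 0.13 to 2.99, and Mdm2 in 19 of 21. In Atm-/- lines the mean of Cdkn1a was 1499 at 1 Gy and 1130 at 0 Gy, and that of Mdm2 was 1081 and 1108. With lines paired, the Atm-/- response was called lower than that of WT for 2 of 2 check genes, where 1% of all probe sets were called either way. The targeted gene lay below all 6 WT arrays on all 6 arrays of the mutant for Atm (2 of 2 probe sets), H2ax (1 of 1), Mdc1 (1 of 1), Mre11a (1 of 2) and Trp53bp1 (1 of 6), whereas Prkdc in Scid lines overlapped WT (0 of 1). On the other Mre11a probe set the 6 Mre11A/A arrays, at 223 to 297, lay above the 6 WT arrays, at 95.1 to 214.

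**Figure D1:**
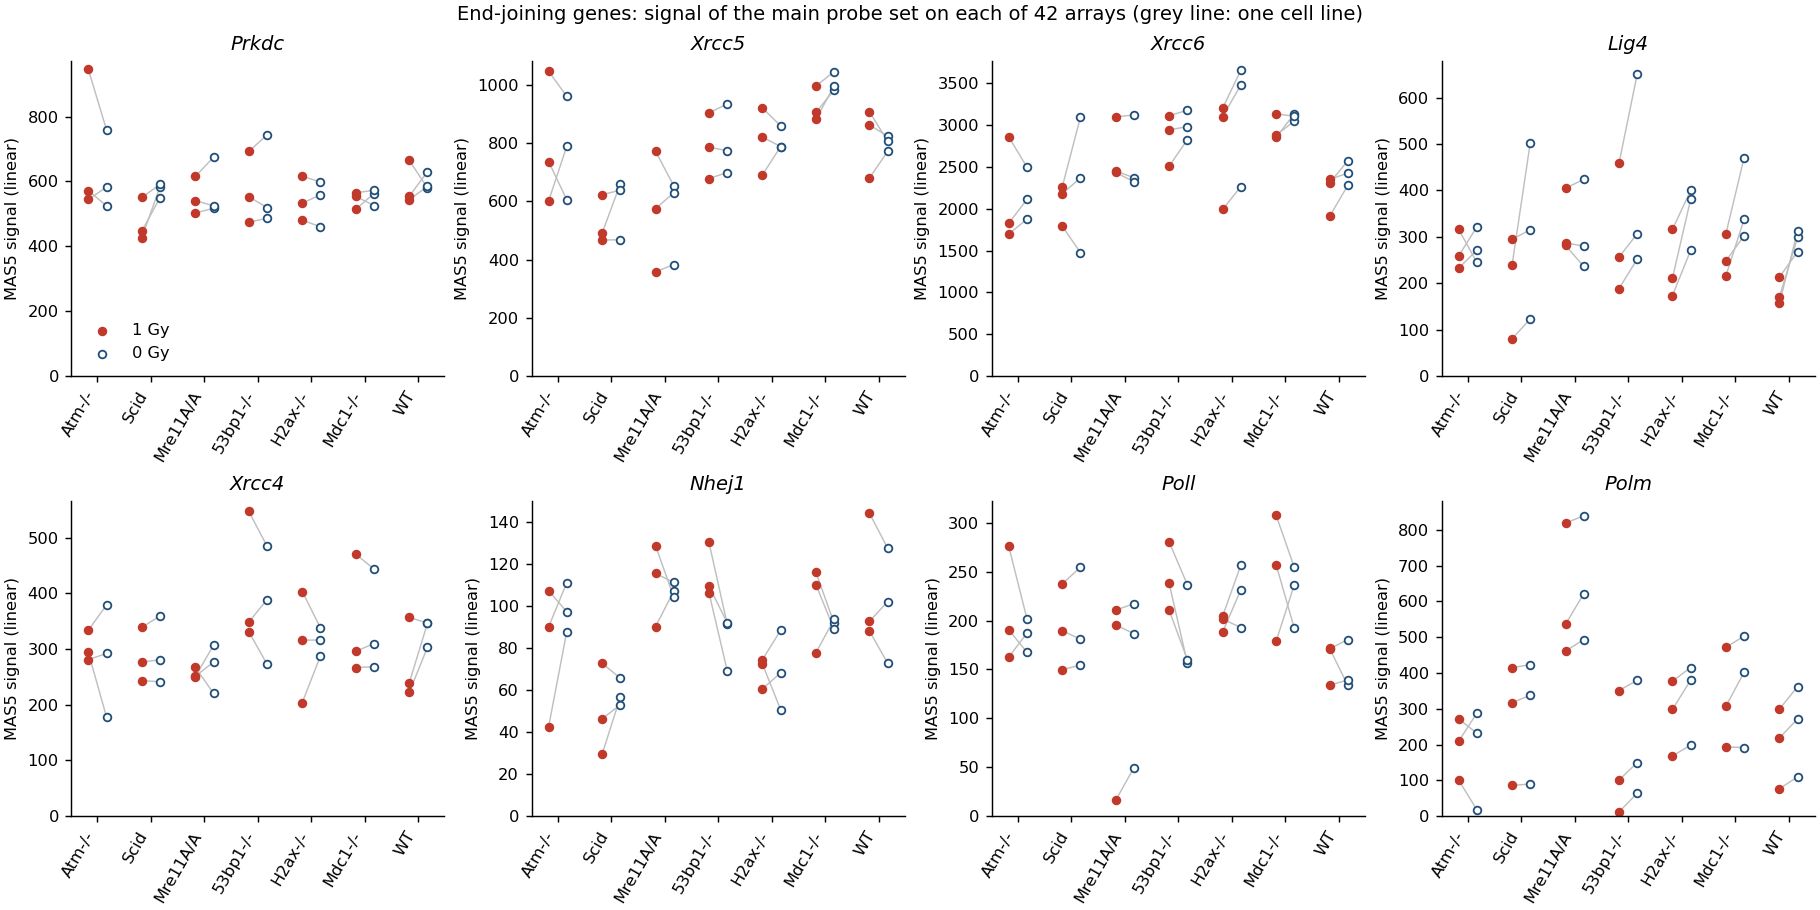
Signal of the main probe set of each of the 8 genes (MAS5 intensity, linear axis) on all 42 arrays, by genotype, with irradiated arrays as filled points to the left of untreated arrays as open points and a grey line joining both arrays of a line. Lig4 points fall toward the irradiated side in most lines, Xrcc5 is lowest in Scid and Mre11A/A lines, and 1 Mre11A/A line has a low Poll signal.

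Prkdc, which encodes DNA-PKcs, did not differ detectably between Scid lines and the other lines. Untreated Scid lines had 584, 591 and 550, and untreated WT lines had 580, 585 and 630. Both groups overlapped. The Scid allele is known as a single-base change that creates a premature stop codon near the end of the coding sequence, so a signal from this probe set is no check of the label. The difference between Scid and WT was -0.06 on the log2 scale (SE 0.18, 95% interval -0.42 to 0.30, limma adjusted p = 0.955).

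Prkdc in Scid lines set against the mean of the 6 other untreated genotypes differed by 0.003 (SE 0.14, limma adjusted p = 0.991). Across all 7 untreated genotypes the means of Prkdc ran between 539 ± 71.1 in H2ax-/- lines and 622 ± 122 in Atm-/- lines (SD, n = 3 each), every neighbour in that order overlapped, and the F test among genotypes gave an adjusted p of 0.967. The signals of Prkdc were also among the steadiest from line to line: the SD of its line means, 0.19 on the log2 scale, stood at percentile 15.8 of all probe sets tested.

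Irradiated Scid lines had 427, 551 and 447, against 584, 591 and 550 in the same lines untreated, so the signal was lower at 1 Gy in 3 of 3 lines. The change was -0.28 and did not pass the test, with a limma adjusted p of 0.23 when the lines were paired. Irradiated Scid lines set against the other irradiated genotypes differed by -0.27 (SE 0.14, adjusted p = 0.19). In the 21 lines together, Prkdc was lower at 1 Gy in 13 and higher in 8, with a median change of -0.04.

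**Figure D2:**
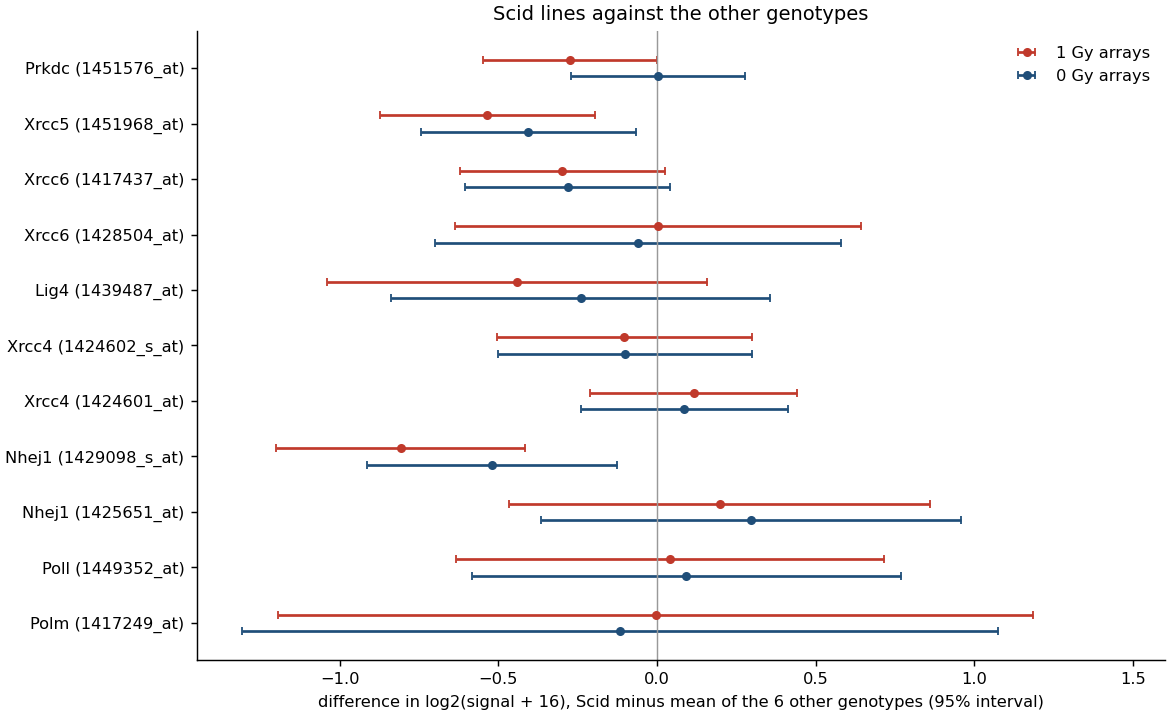
Difference in log2(signal + 16) between Scid lines and the mean of the 6 other genotypes for the 11 probe sets, with 95% intervals, separately for irradiated arrays (upper, red) and untreated arrays (lower, blue). Xrcc5 and the brighter Nhej1 probe set lie left of 0 on both kinds of array, and Prkdc lies at 0 on untreated arrays.

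Xrcc5, which encodes Ku80, was the only member called among the 7 untreated genotypes, with an F test adjusted p of 0.032. In this test 19.8% of all probe sets were called, so 1 of 11 members is no larger a share than the background. Untreated Mdc1-/- lines had 984, 997 and 1046, and Mre11A/A lines had 654, 630 and 383. Scid lines had 659, 468 and 639, whereas WT lines had 825, 808 and 772. Mdc1-/- lines lay above every other untreated line but none of the other neighbours in the order of means separated: 1009 in Mdc1-/-, 813 in H2ax-/-, 803 in 53bp1-/-, 786 in Atm-/-, 589 in Scid and 556 in Mre11A/A lines, against 802 in WT lines.

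Taken against WT alone, no genotype passed the test for Xrcc5. The difference was -0.55 in Mre11A/A (limma adjusted p = 0.159), -0.45 in Scid (0.44) and 0.33 in Mdc1-/- (0.437). The signals of these 3 genotypes did not overlap those of WT. Scid lines against the 6 other genotypes differed by -0.41 (SE 0.17, adjusted p = 0.11) on untreated arrays. On irradiated arrays of the same lines the difference was -0.54 (adjusted p = 0.0274), a call that 6.78% of probe sets shared in that direction. On the mean of both arrays of a line it was -0.47 (adjusted p = 0.0423, 7.81% lower in all).

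The call among genotypes for Xrcc5 rested on few arrays. Its adjusted p lay between 0.013 and 0.1003 over 53 alternatives, and 6 of these ended the call. They were quantile normalization and leaving out the untreated array of Scid line 2, of Mre11A/A line 3, or of Mdc1-/- line 1, 2 or 3. On irradiated arrays the F test gave an adjusted p of 0.0211, where 27.3% of probe sets were called, and on line means it gave 0.0278, where 24.9% were called. These arrays come from the same lines and are not independent of the untreated ones.

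Xrcc6, which encodes Ku70, the partner of Ku80, did not pass the F test among untreated genotypes (adjusted p = 0.171). Its untreated signals were 3136, 3046 and 3108 in Mdc1-/- lines and 3176, 2981 and 2825 in 53bp1-/- lines, against 2574, 2425 and 2280 in WT lines. Both mutants lay above WT without overlap. Scid lines spread from 1476 to 3093, wider than the whole WT group. A second Xrcc6 probe set was dim, above the median of its array on 4 of 42 arrays, and its values of 5.33 to 92.7 carry little weight. Xrcc5 and Xrcc6 line means correlated at 0.353 over 21 lines, a description of lines that share their array.

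Lig4, which encodes DNA ligase IV, did not differ detectably among untreated genotypes (F test adjusted p = 0.91). Lines of 1 genotype differed widely. The untreated signals were 650, 307 and 252 in 53bp1-/- lines, 502, 315 and 123 in Scid lines and 299, 313 and 268 in WT lines. Scid and 53bp1-/- lines therefore enclosed the whole WT range.

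Xrcc4, the scaffold partner of ligase IV, had 2 probe sets that measured it at similar brightness. On the main one untreated means lay between 268 ± 43.8 in Mre11A/A lines and 382 ± 106 in 53bp1-/- lines (SD, n = 3 each), every neighbour overlapped and the F test adjusted p was 0.694. On the other, Mre11A/A lines had 249, 144 and 235, below the 265, 364 and 272 of WT lines, with a difference of -0.51 (adjusted p = 0.186). The probe sets differed in this respect, since the Mre11A/A lines overlapped WT on the main one.

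Nhej1, which encodes XLF, had its lowest mean in Scid lines, which overlapped H2ax-/- lines. Untreated Scid lines had 65.7, 53.0 and 56.5 on the brighter probe set, against 128, 72.9 and 102 in WT lines, and these groups did not overlap. Untreated H2ax-/- lines had 50.6, 68.2 and 88.5. Against the 6 other untreated genotypes the difference was -0.52 (SE 0.19, limma adjusted p = 0.073), which missed the threshold. Irradiated Scid lines had 72.8, 46.3 and 29.4, against 144, 88.1 and 92.7 in irradiated WT lines and 72.4, 60.6 and 74.5 in irradiated H2ax-/- lines. On irradiated arrays the difference of Scid from the other genotypes was -0.81 (limma adjusted p = 0.00409), where 6.78% of all probe sets were called lower. On line means it was -0.66 (limma adjusted p = 0.00924), where 7.81% were. The F test of Nhej1 among genotypes gave an adjusted p of 0.181 on untreated arrays, 0.00966 on irradiated arrays and 0.0343 on line means. Of all probe sets, 19.8%, 27.3% and 24.9% were called in these F tests.

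The difference of Nhej1 did not extend to its second probe set, where Scid lines were 0.30 above the others (adjusted p = 0.611). That set was above the array median on 6 of 42 arrays and the brighter one on 29, so both are near background. The call on untreated arrays was gained when irradiated Atm-/- line 2 was left out, alone (adjusted p = 0.0429) or with irradiated WT line 4 (0.0417). Those 2 arrays have the highest medians.

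Poll, which encodes polymerase λ, had a low signal in 1 line. Mre11A/A line 2 had 16.2 at 1 Gy and 49.5 at 0 Gy, against 134 to 308 on the 40 other arrays. The other Mre11A/A lines had 211 and 196 at 1 Gy and 217 and 187 at 0 Gy. Dpcd, the next gene in RefSeq order on chromosome 19, had 40.3 at 1 Gy and 42.7 at 0 Gy in that line, against 594 to 1152 on the other arrays. This line and Dpcd were picked out after the values had been seen.

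Of the 10 measured genes around Poll, 5 on each side, Dpcd was the only one that lay below all other arrays in this line. Btrc on one side had 205 at 1 Gy and 201 at 0 Gy, within the 90.6 to 292 of the other arrays, and Fbxw4 on the other had 134 and 108, within 87.7 to 284. Of all probe sets tested, 1.21% lay below every other line on both arrays of Mre11A/A line 2, and the share over the 21 lines was 0.248% to 2.41%. Over 21 line means Poll and Dpcd correlated at 0.906, and without that line at 0.311. Among untreated genotypes Poll did not pass the F test (adjusted p = 0.738), though H2ax-/- (231, 193 and 257) and Mdc1-/- (237, 192 and 254) lines lay above WT (134, 139 and 181).

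**Figure D3:**
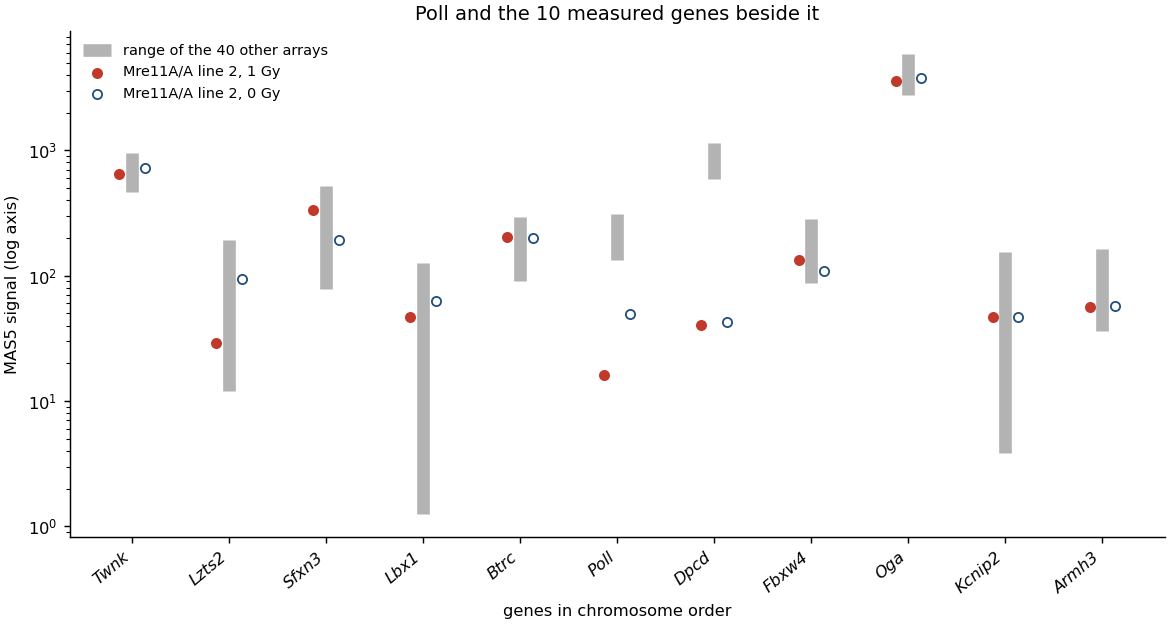
Signals of Poll and of the 10 measured genes beside it in chromosome order (MAS5 intensity, log axis), with Mre11A/A line 2 at 1 Gy as a filled point and at 0 Gy as an open point and the range of the 40 other arrays as a grey bar. Poll and Dpcd of that line lie below the bar, and the other 9 genes lie within it.

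Polm, which encodes polymerase μ, differed most between lines. Its signal ran from 11.8 to 839 over the 42 arrays, and the SD of its line means, 1.07 on the log2 scale, stood at percentile 96.9 of all probe sets. Untreated Mre11A/A lines had 621, 493 and 839, against 110, 362 and 272 in WT lines. All Mre11A/A lines lay above all WT lines, with a difference of 1.45 (SE 0.77, 95% interval -0.11 to 3.01, limma adjusted p = 0.342). The spread within genotypes was as wide: untreated Atm-/- lines had 18.5, 287 and 232, and the F test adjusted p was 0.276.

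In the 6 comparisons of an untreated mutant with untreated WT, none of the 11 probe sets was called. Of all probe sets, 0.103% were called in Atm-/-, 0.51% in Scid, 4.98% in Mre11A/A, 5.21% in 53bp1-/-, 5.7% in H2ax-/- and 7.52% in Mdc1-/-, and 12.3% for Scid against the other genotypes, where no member was called either. Without adjustment, p was under 0.05 for 2 of 11 in Scid, against 11.1% of all probe sets, and for 2 of 11 in Mre11A/A, against 17%. For Scid against the other genotypes it was 2 of 11, against 25.7%. Arrays that did not overlap WT were found for 1 member probe set in Atm-/- (11.4% of all probe sets), 2 in Scid (15.8%), 3 in Mre11A/A (24.8%), 1 in 53bp1-/- (25.7%), 1 in H2ax-/- (28.1%) and 4 in Mdc1-/- (28.8%). The median difference over the members was -0.06 in Scid, against 0.02 over all probe sets, and 0.30 in Mdc1-/-, against 0.01.

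Lig4 fell after radiation when both arrays of a line were compared with each other, and it was the only member called. Lig4 was lower at 1 Gy in 18 of 21 lines, where 2.55% of probe sets were lower in at least 18. Averaged over genotypes the change was -0.38 (SE 0.06, lines paired), a 0.770-fold signal, with a limma adjusted p of 0.000179. Unpaired, with the same change and an SE of 0.15, the adjusted p was 0.245. In the paired test 5.54% of probe sets were called lower and 10.8% in either direction, and in the unpaired test 2.41% in either direction and no member. Fewer cells of a kind and less RNA per cell cannot be told apart in such samples.

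WT was the only genotype in which Lig4 was called by itself. Irradiated WT lines had 171, 157 and 213, against 299, 313 and 268 in the same lines untreated. The change was -0.66 (SE 0.17, paired, limma adjusted p = 0.0355), a call made for 0.962% of probe sets in that direction. Without WT line 1 the adjusted p was 0.162 and without WT line 3 it was 0.297, so the call in WT rests on these lines. The call averaged over genotypes was kept in all 28 paired alternatives, with changes of -0.41 to -0.32.

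Lig4 was lower in all 3 lines of 4 mutants. Irradiated H2ax-/- lines had 211, 316 and 174, against 381, 400 and 271 untreated, a change of -0.58 (paired adjusted p = 0.112). Irradiated Scid lines had 239, 295 and 80.2, against 502, 315 and 123 untreated, a change of -0.55 (0.118). Irradiated Mdc1-/- lines had 248, 307 and 216, against 303, 471 and 338 untreated, a change of -0.49 (0.13). Irradiated 53bp1-/- lines had 459, 256 and 189, against 650, 307 and 252 untreated, a change of -0.37 (0.577). None of these 4 changes passed the test over all 3 lines. In Scid the size depended on single lines: without Scid line 2 the change was -0.78 and was called (paired adjusted p = 0.0394), and without Scid line 1 it was -0.31 and was not. Being lower in all 3 lines was common among all probe sets: 19.5% in H2ax-/-, 16.3% in Scid, 21% in Mdc1-/-, 15.8% in 53bp1-/- and 15.7% in WT.

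In Atm-/- and Mre11A/A lines Lig4 did not move 1 way. Irradiated Atm-/- lines had 232, 259 and 317, against 271, 321 and 245 untreated, a change of -0.05. Irradiated Mre11A/A lines had 281, 287 and 405, against 236, 280 and 424 untreated, a change of 0.07. The test of the difference from the WT response did not pass: 0.61 in Atm-/- (95% interval 0.12 to 1.10, paired adjusted p = 0.224) and 0.73 in Mre11A/A (0.24 to 1.22, 0.41). A difference in response between genotypes was therefore not shown for Lig4.

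**Figure D4:**
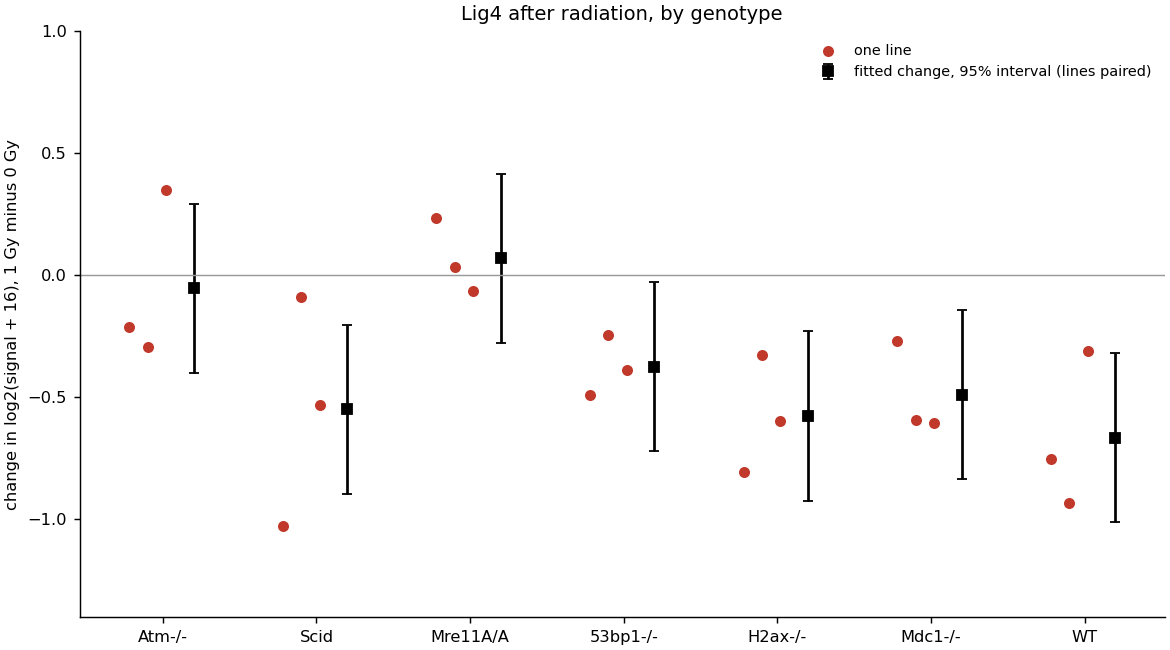
Change of Lig4 in log2(signal + 16), 1 Gy minus 0 Gy, for each of the 3 lines of a genotype (red points) with the fitted change and its 95% interval when lines are paired (black squares). All points lie below 0 in Scid, 53bp1-/-, H2ax-/-, Mdc1-/- and WT lines, and points lie on both sides of 0 in Atm-/- and Mre11A/A lines.

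Abhd13, which starts 37 bases from Lig4 on the other strand, did not pass the test. Its 4 probe sets changed by -0.05 to 0.01 on average over genotypes, with paired adjusted p between 0.63 and 0.92. It was lower at 1 Gy in 7 to 11 of 21 lines, against 18 of 21 for Lig4. The neighbours of Xrcc4 and Xrcc6, Tmem167 and Desi1, did not pass either.

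No other member was called after radiation in any genotype. Unpaired, no member was called in any genotype, and the shares of all probe sets called were 0.00708% in Atm-/-, 0.0743% in Scid, 0% in Mre11A/A, 0.0142% in 53bp1-/-, 0.0425% in H2ax-/-, 0.389% in Mdc1-/- and 0.0814% in WT. With lines paired they were 1.27% in Atm-/-, 1.71% in Scid, 0.046% in Mre11A/A, 1.17% in 53bp1-/-, 1.07% in H2ax-/-, 3.57% in Mdc1-/- and 2.24% in WT, with Lig4 in WT as the 1 member. Without adjustment, the unpaired p was under 0.05 for 1 of 11 in Mdc1-/-, against 4.75% of all probe sets, and for none in the other 6 genotypes. The paired p was under 0.05 for 2 of 11 in Scid (11% of all), 2 in 53bp1-/- (7.53%), 1 in H2ax-/- (9.63%), 2 in Mdc1-/- (13.4%) and 1 in WT (14%), and for none in Atm-/- and Mre11A/A.

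Several smaller shifts did not pass the test. Xrcc6 was lower at 1 Gy in 16 of 21 lines, where 8.13% of probe sets were lower in at least 16, with a mean change of -0.08 (paired limma adjusted p = 0.148). Irradiated WT lines had 2307, 2352 and 1909, against 2574, 2425 and 2280 untreated. Polm was lower in 18 of 21 lines, as many as Lig4, where 2.55% of probe sets were lower in at least 18. Its median change was -0.13, and its mean change of -0.15 had a paired adjusted p of 0.381. Single lines ranged from -1.52 to 1.76. In the 53bp1-/- lines the brighter Nhej1 probe set changed by 0.52, 0.44 and 0.21 (paired adjusted p = 0.829), and Poll by 0.23, 0.56 and 0.36 (0.719). The dim Xrcc6 probe set was higher in 13 of 21 lines, with a median change of 0.27 that the main probe set did not share. In Mdc1-/- lines 1, 2 and 3 the dim Nhej1 probe set changed by 1.70, 0.22 and 0.78, with a mean of 0.90 (paired adjusted p = 0.302). Its untreated signal in line 1 was 3.83. Xrcc5, both Xrcc4 probe sets, Poll and the brighter Nhej1 probe set had median changes between -0.04 and 0.12.

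**Figure D5:**
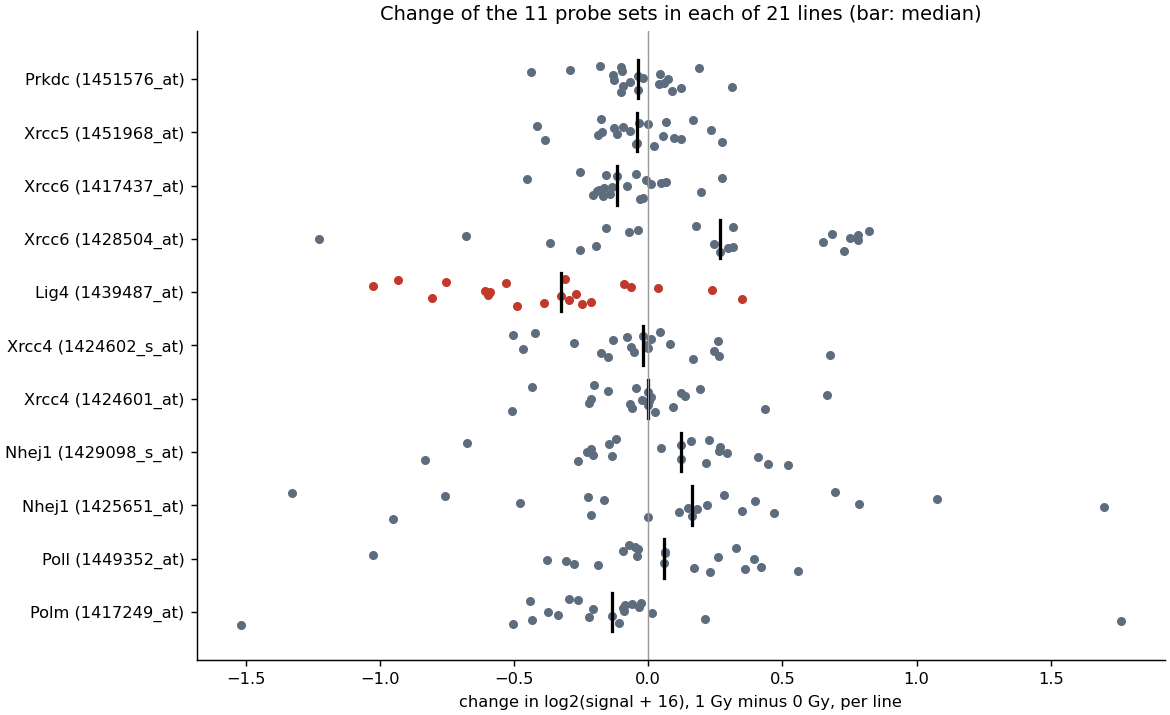
Change in log2(signal + 16), 1 Gy minus 0 Gy, of the 11 probe sets in each of the 21 lines (points), with the median as a bar and Lig4 in red. The median of Lig4 is -0.33 and 18 of its 21 points lie left of 0.

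The response of each mutant was also set against that of WT. No member was called, unpaired or paired. Of all probe sets, 0.0106% were called for Atm-/- unpaired and 1% paired, and 0% for Scid, Mre11A/A, 53bp1-/-, H2ax-/- and Mdc1-/- in both tests. At an unadjusted p under 0.05, 2 of 11 were seen for Atm-/- when paired, against 13.7% of all probe sets, and 2 of 11 for Mre11A/A, against 7.96%. These comparisons share the WT arrays. Over all 21 pairs of genotypes, the lowest jointly adjusted p of a member was 0.321, paired.

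Other genes of the pathway were taken from lists. Of 10 accessory end-joining genes 8 were tested, and unpaired none was called after radiation. With lines paired, 2 of the 8 were called lower averaged over genotypes, where 5.54% of all probe sets were, and none was called higher. Tdp2, which removes topoisomerase adducts from ends, changed by -0.18 (limma adjusted p = 0.000352) and was lower in 19 of 21 lines. Dntt, the terminal transferase that adds bases at immunoglobulin joints, changed by -0.15 (adjusted p = 0.00477) and was lower in 17 of 21. Of all probe sets, 2.55% were lower in at least 18 lines and 8.13% in at least 16. Aplf, a scaffold that binds Ku and XRCC4, changed by -0.57 with a limma adjusted p of 0.05001 and was not called. It was lower in 14 of 21 lines, with a median change of -0.15 and single lines from -2.78 to 0.64. Its mean signal was 58.6 at 1 Gy and 218 at 0 Gy in Atm-/- lines, but 155 and 162 in Mre11A/A lines.

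Among untreated genotypes, Dntt passed the F test (limma adjusted p = 0.0401), as 19.8% of all probe sets did, a call that 13 of 53 alternatives ended. Of 7 genes of alternative end joining 6 were tested, and none was called after radiation, unpaired or paired. Parp1, which senses breaks and acts in alternative end joining, was 0.25 higher in untreated Scid lines than in the other genotypes (adjusted p = 0.0267), a comparison with 12.3% of all probe sets called, and the call ended without Scid line 1 or without Scid line 2. Its F test adjusted p was 0.0428, and 20 of 53 alternatives ended that call.

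The members did not rise and fall together across lines. Pearson correlations between pairs of members over 21 line means ran from -0.38 to 0.49, with the highest for Prkdc with Xrcc4 and for Xrcc4 with Poll. The genes whose line means were most like a member were Dpcd for Poll (0.906) and Klhl42 and Spib for Xrcc6 (0.894 and 0.861). For Lig4 they were Myb (0.717), Rbms2 (0.713) and Metap1d (0.692). For Nhej1 they were Rras2 (0.816), Slfn8 (0.814) and Klhl20 (0.802), and for Xrcc5 Rab8b (0.739), Ugcg (0.712) and Tcf7l1 (0.708). For Prkdc the highest was Tspyl4 (0.763), for Xrcc4 Pygm (0.804) and for Polm Sspn (0.766). These are the highest of 12363 genes over 21 lines whose arrays they share, and are given as a description.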

How the data were processed

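RNA was labelled with biotin by the one-cycle protocol, per the labels' protocols. The authors deposited probe-set intensity values that the submitters' processing notes attribute to MAS5; its version and settings are not given in the sources used here. Genotype, dose and replicate number came from the labels (WT lines 1, 3 and 4, mutant lines 1, 2 and 3).

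The table held 45101 probe sets. Controls (64) were left out, as were probe sets that exceeded their array's median on fewer than 3 arrays. In R 4.3.3, limma 3.58.1 fitted 14 group means to log2(signal + 16) of 28260 probe sets (28 residual degrees of freedom), with two-sided p-values adjusted by Benjamini-Hochberg within a comparison. The fit was tested on simulated data. Replicate numbers were found to pair the arrays: deviations from group means correlated at 0.322 to 0.598 for each of 21 same-number pairs. Other pairs of a genotype correlated at -0.0400 or less. Deviations cancel out within a group, so positive same-number values force the others to be negative on average. The values of the other pairs are therefore no separate support for the pairing. Given the same-number values, paired fits had the line as a block, with 14 residual degrees of freedom. The main probe set of a gene had the highest mean. The genes and lists were chosen with earlier results of these data known; named were all members, up to 4 list genes with the smallest p, head-to-head neighbours and the 3 genes most like a member. Alternatives changed the pseudocount, filter, normalization, variance model and arrays; those of the paired fits were chosen after seeing the data. With 3 arrays a group, precision is limited. Plots used Python 3.11.15 and matplotlib 3.10.9.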

Additional observations from a re-analysis of the deposited data

Results flagged for a closer look

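On the second Xrcc4 probe set the response of Mre11A/A lines minus that of WT lines was 0.53 on the log2 scale. All 3 Mre11A/A lines were higher at 1 Gy, with changes of 0.14, 0.66 and 0.12, and all 3 WT lines were lower, with changes of -0.05, -0.43 and -0.20. The result was flagged for these opposite signs, so they are no separate support for a difference. The test of the difference did not pass, with a limma adjusted p of 0.528 when lines were paired. On the main Xrcc4 probe set the same difference was 0.25 (paired adjusted p = 0.84).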

How the results depend on the processing

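With lines as a replicate block, 1 call of a member was made over the 7 genotypes taken singly (Lig4 in WT). Averaged over genotypes 1 was made (Lig4), against 0 unpaired in each case. The block changed no other call of a member. Leaving out 1 line, these paired counts ran from 0 to 2 over the 7 genotypes taken singly and from 1 to 2 averaged. Among untreated genotypes 1 member was called, 0 after quantile normalization, 2 on irradiated arrays, 2 on the mean of both arrays of a line, and 0 to 2 without 1 array. For untreated Scid against the other genotypes 0 were called, 1 without both arrays of high median, 2 on irradiated arrays, 2 on line means, and 0 to 1 without 1 array. The counts for mutants against WT, untreated or in response, were 0 under every alternative run. Signs turned only in values that were never called. Prkdc in Scid against the others was -0.27 on irradiated arrays, -0.14 on line means and -0.016 to 0.034 without 1 array. In Scid lines Lig4 ran from -1.07 to -0.033 without 1 array and from -0.78 to -0.31 without 1 line, paired. Without 1 array it ran from -0.17 to 0.046 in Atm-/-, from -0.10 to 0.30 in Mre11A/A and from -0.71 to 0.019 in 53bp1-/-; without 1 line, paired, from -0.25 to 0.068 in Atm-/- and from -0.014 to 0.14 in Mre11A/A, and it was 0.068 in Atm-/- without both lines of high median. Probe sets near background, both for Nhej1 and the second for Xrcc6, limit what their changes show.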
